A study of Mus musculus with 6 samples.

Results

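The clustered protocadherin genes were examined in the ATAC-seq peak list of untreated V6.5 cells. V6.5 is a line of mouse embryonic stem cells (mESCs). Members were the protein-coding RefSeq genes with a curated transcript on chromosome 18 (GRCm38, the assembly that mm10 names) whose symbols begin with Pcdha, Pcdhb, Pcdhga, Pcdhgb, Pcdhgc or Pcdhac followed by a number. A gene without a curated transcript entered neither the members nor the genes used for comparison, so the counts may leave out a gene of a cluster. The rule gave 57 of 21000 protein-coding genes: 14 alpha genes (12 variable genes and the C-type genes Pcdhac1 and Pcdhac2), 22 beta genes and 21 gamma genes (12 A-type, 6 B-type and 3 C-type). In ATAC-seq a transposase, Tn5, inserts adapters where DNA is accessible, so that a peak marks a stretch that was cut more often than its surroundings. The series holds 6 libraries of 50000 cells each: 2 of untreated V6.5 cells and 4 of mESCs that carry a ZBTB21 degron, taken 0 and 6 h after auxin (IAA), with 2 libraries per time. Only the untreated condition has its peaks described here, from 1 list of 41014 peaks without values per library. The list was tied to the V6.5 libraries by its name alone, and the labels of the 0 h degron libraries also hold the word untreated. No other list was used, and the degron libraries were not analysed here. The list gives no depth either. No difference was therefore tested, and all counts are descriptions of this list. The labels put the V6.5 cells on irradiated mouse embryonic fibroblasts, and they describe a size selection of the library DNA for fragments of mono- and dinucleosome length. A doxycycline treatment of degron cells is written in the labels of all libraries, also of the untreated ones.

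Clustered protocadherins are cadherin-type adhesion proteins of the neuronal surface that bind their own kind on neighbouring membranes and give single neurons a surface identity. Each alpha and gamma gene has its own promoter and a long variable first exon, which is spliced to constant exons shared by the whole cluster, while each beta gene is encoded by a single exon. A neuron uses only a few of the variable promoters, in a choice that involves DNA methylation, CTCF, cohesin and distant enhancers, whereas the C-type genes are used by most neurons. In these annotations every alpha and gamma member had 4 exons and every beta member 1 exon, each member had 1 TSS, and all lay on the plus strand. The first exons were 2382 to 2853 bp long in the alpha cluster, 2340 to 5271 bp in the beta cluster and 2511 to 2961 bp in the gamma cluster.

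The list was first read against genes that mark cell types. Of 8 mESC markers, 4 had a peak within 1 kb of a TSS, namely Pou5f1, Nanog, Zfp42 and Dppa5a, and Sox2, Esrrb, Klf4 and Tdgf1 had none. Of 8 fibroblast markers, Thy1 alone had a listed peak (score 829), and Col1a1, Col1a2, Col3a1, Postn, Twist1, Dcn and Lum had none. Of 6 neuronal markers, Syt1, Snap25 and Stmn2 had one, and Map2, Rbfox3 and Tubb3 had none. Among 10 genes that act in protocadherin promoter choice or in chromatin structure, Setdb1, a histone H3 lysine 9 methyltransferase (score 893), and Wiz, a zinc finger protein that works with such enzymes (score 597), had a listed peak within 1 kb. The CTCF gene Ctcf, the cohesin genes Rad21, Smc1a and Smc3, the cohesin loader and release factor genes Nipbl and Wapl, and the silencing genes Smchd1 and Dnmt3b had none. Since promoters of genes that most dividing cells use, such as Ctcf and Rad21, are missing from the list, the lack of a listed peak cannot be read as closed chromatin.

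The peaks were spread very unevenly over the 3 clusters. Between the start of Pcdha1 and the end of the gamma cluster, 911.6 kb in all, lay 40 peaks or 43.9 per Mb, beside 14.6 per Mb on the whole of chromosome 18 and 16.3 per Mb on chromosomes 1 to 19. The gamma cluster (chr18:37661775-37841873, 180.1 kb) held 20 peaks or 111 per Mb, the beta cluster (chr18:37264998-37521419, 256.4 kb) 10 peaks or 39 per Mb, and the alpha cluster (chr18:36930285-37188897, 258.6 kb) 7 peaks or 27.1 per Mb. Genes are dense here too. The 911.6 kb held 57 member TSSs (21 gamma, 22 beta and 14 alpha), beside 503 protein-coding genes, members among them, on the 90703 kb of chromosome 18. The peak densities were not adjusted for the density of genes. The interval between alpha and beta held 1 peak and that between beta and gamma 2 peaks. In the 100 kb before the alpha cluster there was no listed peak, within a stretch of 151 kb (chr18:36802038-36953046) that had none and that took in the TSSs of the first alpha genes up to Pcdha4. In the 100 kb after the gamma cluster there were 7 peaks or 70 per Mb. Peaks are placed by their centre here, and the RefSeq readthrough models Gm37013, Gm38666 and Gm38667, which span alpha to gamma, were not counted as members.

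**Figure D1:**
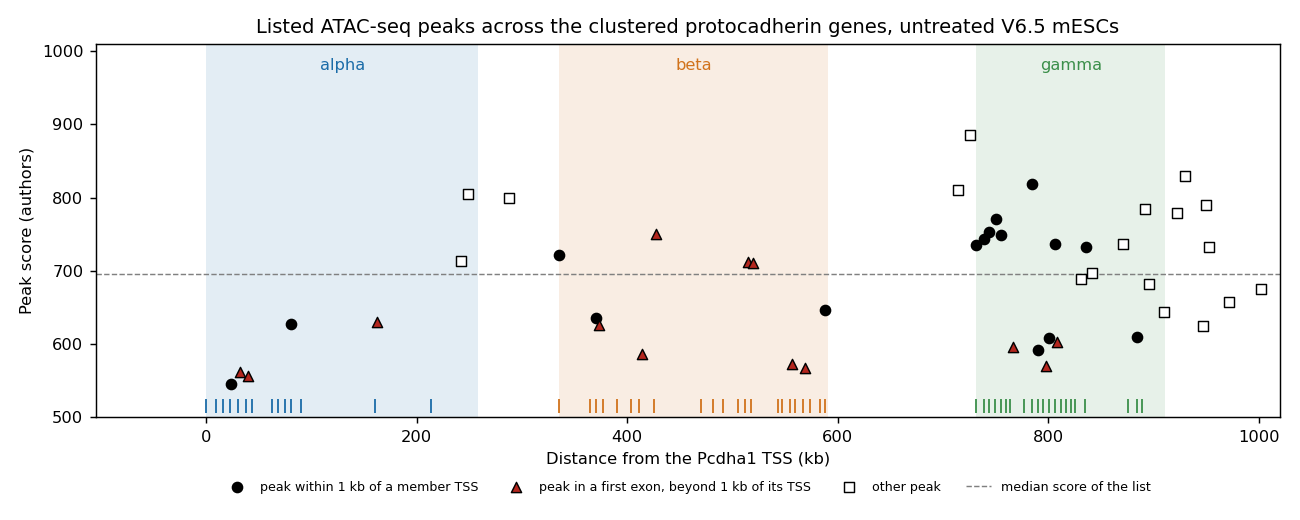
Score of each listed ATAC-seq peak (vertical axis, the authors' score, without unit) against its distance from the Pcdha1 TSS (horizontal axis, kb), with the alpha, beta and gamma clusters shaded, member TSSs as ticks and the median score of the list, 696, as a dashed line. The 7 alpha and 10 beta peaks were few and mostly under the line, and the 20 gamma peaks were dense, with those at member TSSs at both sides of it.

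Over all members, 16 of 57 (28.1%, Wilson 95% interval 18.1 to 40.8) had a listed peak within 1 kb of their TSS, beside a background of 28.5% of the protein-coding genes and 31.4% of the 446 genes of chromosome 18 that were no members. The share over all members was thus near the background. The same 16 members had a peak by 3 other rules: a window of 500 bp (background 26.6%), the peak centre within 1 kb (27.3%) and the 5' end of the gene in place of the TSSs (26.2%). With GENCODE TSSs 16 of the 56 matched members had one (background 29.3%), and over the 503 genes of chromosome 18 with the members the share was 31%. The clusters differed among themselves: 11 of 21 gamma genes (52.4%, 32.4 to 71.7), 3 of 22 beta genes (13.6%, 4.75 to 33.3) and 2 of 14 alpha genes (14.3%, 4.01 to 39.9) had such a peak. The gamma interval overlapped both others, and the intervals cover counting error only, although neighbouring genes of a cluster are related to each other and no independent draws. Of all 50-base words of a first exon, a median of 14.3% occurred more than once at the locus in alpha, 4.58% in beta and 0.6% in gamma, and the part of this in the counts was not tested. Within the alpha cluster the first exons of the 2 members with a peak had 12.9 and 19.2% repeated words, and those of the 12 without one had 0 to 26.5%. The medians with and without a peak were 2.89 and 4.82% in beta and 0.869 and 0.44% in gamma. These words were counted over first exons and not over the 1 kb on either side of a TSS. For ChIP-seq the study kept only reads that mapped uniquely. What was done with reads of several placements in ATAC-seq is not given in the sources used here.

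The alpha cluster had 2 peaks within 1 kb of a TSS, both at variable genes and both with scores under the median of the list. Pcdha4 had a peak of 396 bp with a score of 545, at the 1.33th percentile of the list, whose centre lay 555 bp downstream of the TSS. Pcdha11 had a peak of 318 bp with a score of 627 that covered the TSS, with its centre at -43 bp. The other 10 variable genes and both C-type genes had no peak within 1 kb. The distance from an alpha TSS to the nearest peak edge had a median of 6.148 kb, from 0 kb at Pcdha11 to 28.58 kb at Pcdhac2. Over all protein-coding genes this median was 9.247 kb, longer than in the alpha, the beta or the gamma cluster.

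Of the beta genes, Pcdhb1, Pcdhb3 and Pcdhb22 had a peak, and these 3 covered the TSS. Pcdhb1, the gene at the upstream end of the cluster, had the widest peak of the 3 clusters, with 1074 bp and a score of 722. Pcdhb3 (score 636, 482 bp) and Pcdhb22, the gene at the downstream end (score 646, 466 bp), had narrower peaks with scores under the median of the list. The peak centres lay 247, 240 and 124 bp downstream of the TSSs of Pcdhb1, Pcdhb3 and Pcdhb22. The distance to the nearest peak had a median of 4.386 kb, beside 9.247 kb over all protein-coding genes, and was longest at Pcdhb9, with 43.32 kb. Pcdhb9 lay in a stretch of 86.95 kb without a listed peak that held the TSSs of 5 genes in a row, from Pcdhb9 to Pcdhb13.

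In the gamma cluster the genes with a peak stood mostly in its upstream part. The first 5 genes, Pcdhga1, Pcdhga2, Pcdhga3, Pcdhgb1 and Pcdhga4, each had a peak over the TSS, with scores of 735, 744, 753, 771 and 749 and widths of 825, 659, 578, 488 and 482 bp. Their scores thus lay close to each other and to 742, the median of the 5838 listed peaks within 1 kb of any protein-coding TSS. Farther downstream Pcdhga7 had the highest score of all member promoters, 819 (90.1th percentile of the list, 572 bp), and Pcdhga9 a peak of 754 bp with a score of 737. The B-type genes Pcdhgb4 (592, 309 bp) and Pcdhgb5 (608, 315 bp) had the narrowest peaks of the gamma cluster and low scores. Pcdhgb2, Pcdhga5, Pcdhga6 and Pcdhga8, which lie among these genes, had no peak within 1 kb. From Pcdhgb6 on, the last 8 members of the cluster included 2 with a peak, beside 9 of the 13 members before, a border that was set after the values were seen. A gene without a curated transcript would be missing from either count. The 2 genes were Pcdhga12 (733, 496 bp, centre 433 bp downstream) and the C-type gene Pcdhgc4 (609, 388 bp, centre at -574 bp, upstream), and neither peak covered the TSS. By type, 7 of 12 A-type, 3 of 6 B-type and 1 of 3 C-type gamma genes had a peak. The distance to the nearest peak had a median of 0.38 kb and was longest at Pcdhgb7, with 9.852 kb.

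Of the 5 C-type genes, which most neurons express, Pcdhgc4 alone had a peak within 1 kb. The distance to the nearest peak was 1.684 kb for Pcdhac1, 2.829 kb for Pcdhgc5, 5.233 kb for Pcdhgc3 and 28.58 kb for Pcdhac2.

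**Figure D2:**
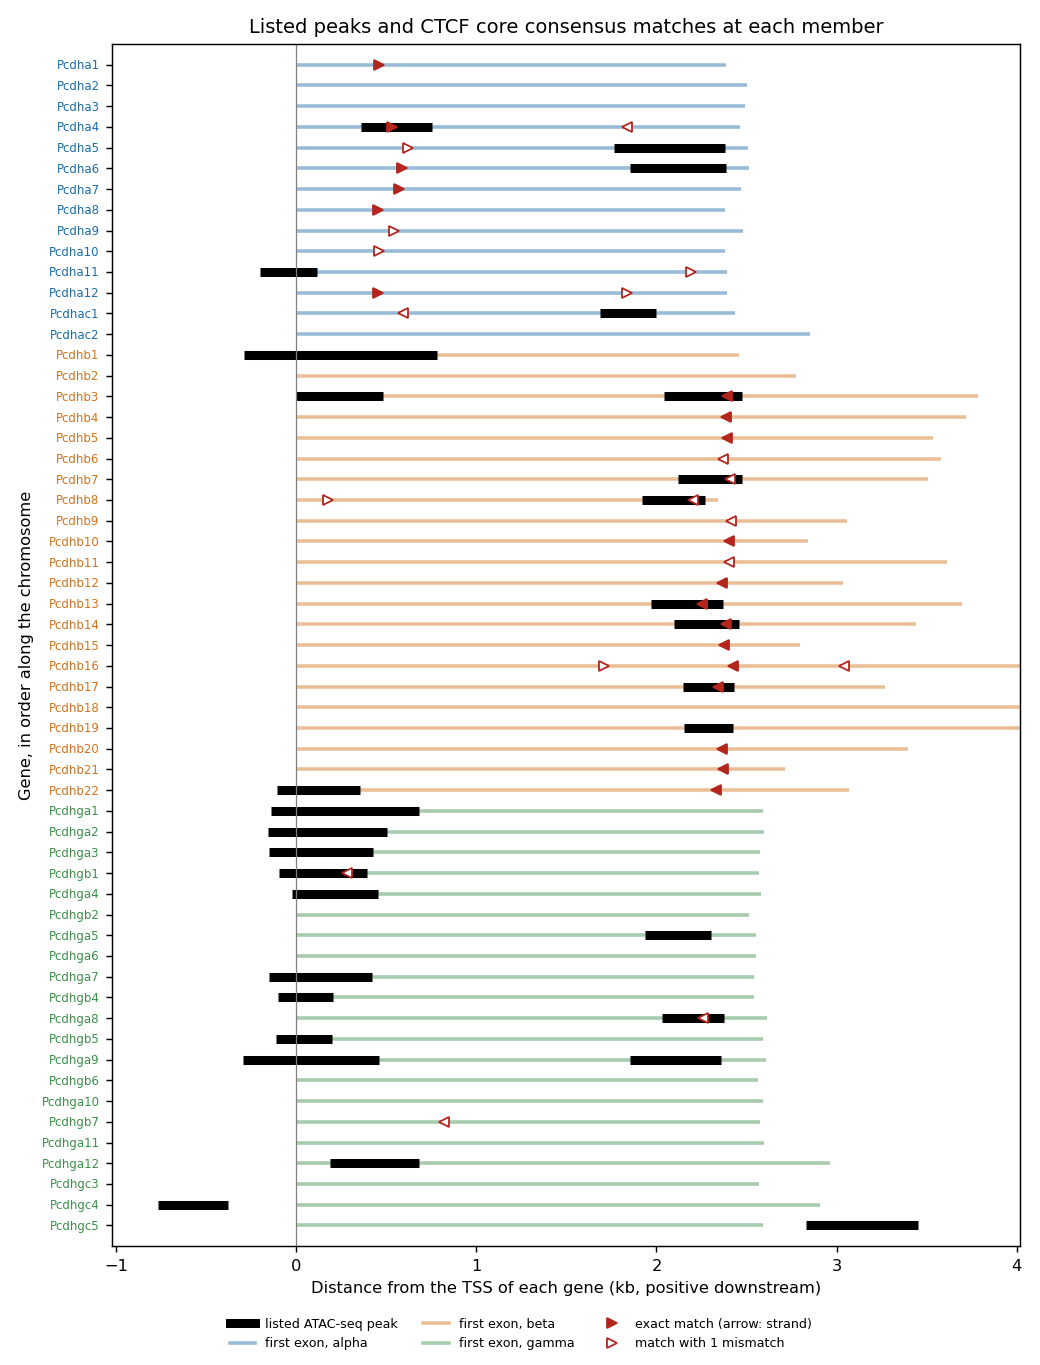
Listed peaks (black bars), the first exon (coloured line) and matches of the CTCF core consensus (arrowheads pointing along the strand, filled when exact, open with 1 mismatch) at each of the 57 members, by distance from the TSS (horizontal axis, kb) in chromosomal order. Peaks over the TSS were frequent in the gamma cluster, peaks near 2 kb stood in all 3 clusters, and 18 of 22 beta genes had a minus-strand match between 2200 and 2427 bp.

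A second class of peaks lay farther downstream in the first exon. Of the 57 members, 13 (22.8%) had a peak centred 1.8 to 2.4 kb downstream of the TSS, beside 1.41% of all protein-coding genes, with a window that was chosen after the positions were seen. These 13 peaks were at the same time all those that lay in a member's first exon and farther than 1 kb from its TSS. Their centres stood 1839 to 2294 bp from the TSS with a median of 2168 bp. Along the first exon this was at 75.5 to 84.4% of its length in alpha and 80.8 to 84.3% in gamma, but at 48.6% (Pcdhb19) to 89.5% (Pcdhb8) in beta, where the exons vary more in length. The comparison with all genes does not account for the length of the first exon.

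The beta cluster had most of these peaks. Pcdhb8 (score 750), Pcdhb13 (712) and Pcdhb14 (711) had scores over the median of the list, and Pcdhb3 (626), Pcdhb7 (586), Pcdhb17 (573) and Pcdhb19 (567) had scores under it. In the alpha cluster such peaks were found at Pcdha5 (562), Pcdha6 (556) and the C-type gene Pcdhac1 (630), and in the gamma cluster at Pcdhga5 (596), Pcdhga8 (570) and Pcdhga9 (603). Pcdhb3 and Pcdhga9 had both kinds of peak. In the beta cluster 7 genes thus had a downstream exonic peak and 3 a peak at the TSS, in the gamma cluster 3 and 11, and in the alpha cluster 3 and 2. The remaining 30 members, 9 alpha, 13 beta and 8 gamma genes, had neither. With a window of 2.5 kb around the TSS, in place of 1 kb, 28 of 57 members (49.1%) had a peak, beside 33.2% of all genes, and the beta count went from 3 to 10, where the peak of Pcdhb17 was also counted for Pcdhb18.

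Over all members the 13 downstream exonic peaks had a median score of 596 and a median width of 366 bp, against 727.5 and 485 bp for the 16 peaks within 1 kb of a member TSS, 11 of which were gamma peaks, and 696 and 547 bp over the whole list. The clusters differed in this. In gamma the downstream and the TSS peaks had median scores of 596 and 737 and median widths of 368 and 496 bp. In beta the scores were 626 and 646, the highest beta score of 750 was that of a downstream peak, and the widths were 356 and 482 bp. In alpha the scores were 562 and 586, and the downstream peaks were the wider ones, with 533 against 357 bp. Of the peaks at the TSS, 9 of 16 had a score over the median of the list, and of the downstream exonic peaks 3 of 13. The 8 peaks elsewhere in the clusters had a median score of 705.

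**Figure D3:**
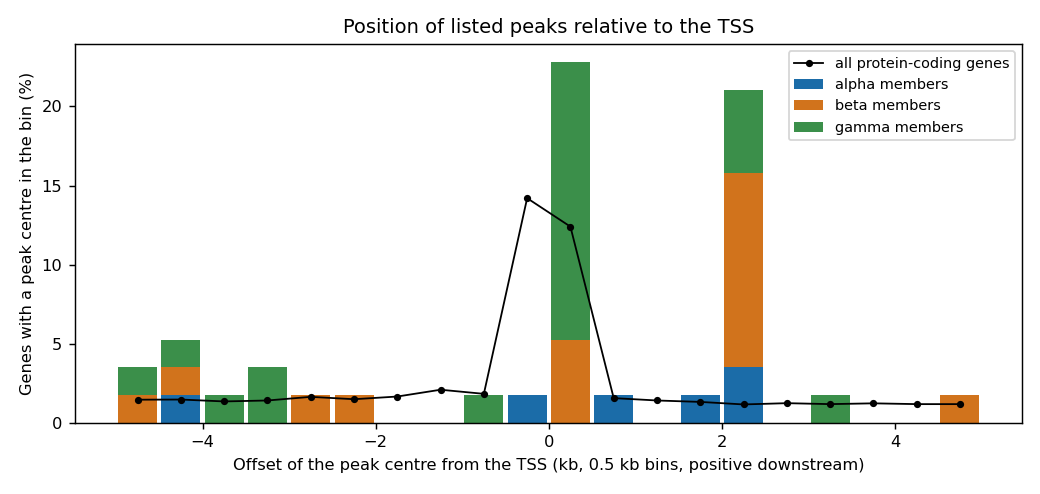
Share of genes with a peak centre in each 0.5 kb bin (vertical axis, %) by offset from the TSS (horizontal axis, kb, positive downstream), for the 57 members as stacked bars by cluster and for all protein-coding genes as a line. Near the TSS the peaks of members lay mostly in the bin just downstream (22.8% of members, 12.4% of all genes) and seldom in the bin just upstream (1.75% of members, 14.2% of all genes), and members had another maximum at 2 to 2.5 kb (21.1% of members, 1.16% of all genes).

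**Figure D4:**
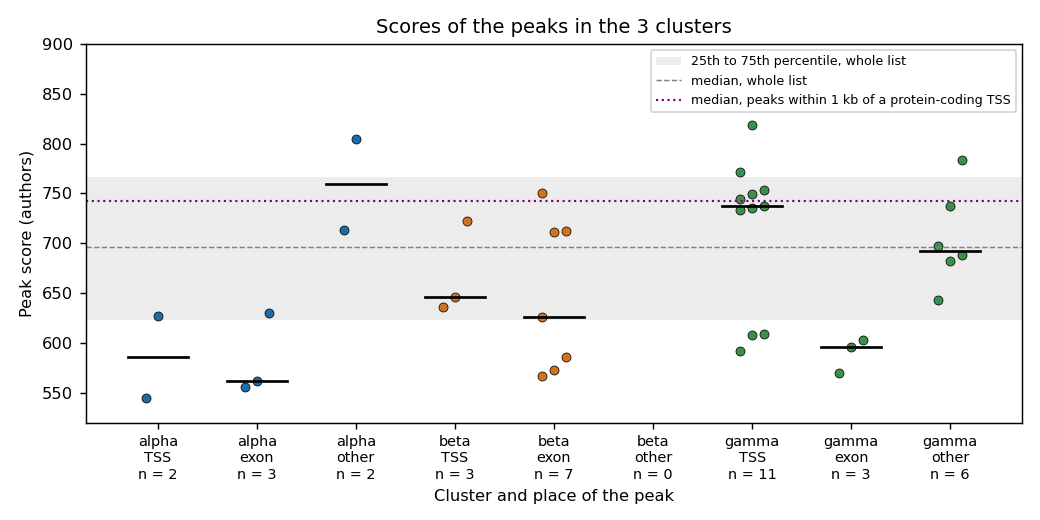
Score of each of the 37 peaks of the 3 clusters (vertical axis, the authors' score, not from 0) by cluster and place (within 1 kb of a member TSS, in a first exon farther from its TSS, or elsewhere), with a bar at the median of each column. The gamma peaks at the TSS had a median of 737 near the 742 of all promoter peaks in the list (dotted line), and the gamma peaks farther downstream in the exon had 596.

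CTCF binds the promoters of many clustered protocadherins and a second site in alpha exons, and cohesin joins such sites into loops. The CTCF core consensus, a motif of 12 letters, was searched on both strands, alone and with no other motif, and a match is a description and no binding site. In the 2 kb around the TSS, 6 of 14 alpha genes had an exact match, all on the plus strand, and no beta or gamma gene had one, beside 1.75% of all protein-coding TSSs. With 1 mismatch allowed, 9 alpha genes had a plus-strand match 456 to 620 bp downstream of the TSS, and only that of Pcdha4 lay in a listed peak. A match with at most 1 mismatch, on either strand, lay within 1 kb of 21.1% of all protein-coding TSSs. The peak of Pcdha4 was the only alpha peak of the list with a match.

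The beta genes had their matches at the other place. A minus-strand match lay 2200 to 2427 bp downstream of the TSS in 18 of 22 beta genes, with a median of 2379 bp, and was exact in 13 of them. From 1.6 to 2.6 kb downstream of all protein-coding TSSs 0.819% had an exact match and 11.1% a match with at most 1 mismatch. The bands of positions were set after the matches were seen, and the members are related genes, so these counts do not come from independent sequences. Of the 18 matches, 6 lay in a listed peak, at Pcdhb3, Pcdhb7, Pcdhb8, Pcdhb13, Pcdhb14 and Pcdhb17, and 12 did not. Of the 7 downstream exonic beta peaks, that of Pcdhb19 alone had no match with at most 1 mismatch. The 15 beta genes without such a peak had matches at a like share. From 1.6 to 2.6 kb downstream of the TSS, 12 of these 15 had a match with at most 1 mismatch and 9 an exact one. Of the 7 genes with such a peak, 6 and 4 had one. Over the 3 clusters 5 of 37 peaks held an exact match, 1 in alpha and 4 in beta, beside 5.91% of all listed peaks, and none of the 20 gamma peaks did. Of the gamma genes, 3 had a match with 1 mismatch and none an exact match from 1 kb before the TSS to the end of the first exon.

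Listed peaks away from member promoters and first exons had some of the highest scores. In the alpha cluster 2 peaks lay in the intron between constant exon 2, which ended at 37159353, and constant exon 3, which began at 37184946. They were listed at chr18:37172262-37172907 (score 713) and chr18:37178305-37178849 (score 805, 86.8th percentile of the list). The single peak between alpha and beta, at chr18:37217916-37218475, had a score of 800 and lay upstream of the nearest member TSS, that of Pcdhb1, at -46803 bp. Between beta and gamma a peak with a score of 810 lay at the promoter of Taf7, which encodes a subunit of the general transcription factor TFIID, and the other, at chr18:37655365-37656041, had a score of 886 (97.8th percentile), the highest of the locus, and lay at -6072 bp from the Pcdhga1 TSS. Slc25a2, a mitochondrial carrier gene next to Taf7, had no peak within 1 kb. From Pcdhb22 to Taf7 no peak was listed over 125.2 kb, a stretch with no member TSS.

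Within the gamma cluster 5 such peaks were intronic in the gene models of the members. They started at 37761471 (score 688), 37771346 (697), 37800841 (737), 37822375 (784) and 37826273 (682), and the peak at chr18:37840465-37841205 (643) lay in constant exon 3. Promoters of genes without a curated RefSeq transcript were not searched for at these peaks, so such a promoter may lie at one of them. The 7 peaks after the gamma cluster, with scores of 624 to 830, all lay in the body of Diaph1, a formin gene of the minus strand, which had no peak within 1 kb of its TSS. Enhancers of the clusters are known in the alpha constant region, between alpha and beta, and downstream of gamma. Their coordinates were not at hand, so no listed peak was named as one of them.

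The study ranked chromatin loops longer than 500 kb by ZBTB21, a zinc finger protein of the ZBTB family, and by the change of cohesin at ATAC-seq peaks inside them once ZBTB21 was degraded. Its supplement gives, with anchors of 25 kb, 500 responsive loops, which hold ZBTB21 peaks and cohesin peaks that fell, and 500 less-responsive loops, which hold neither. Of either class 15 loops lay on chromosome 18, and 0 of them overlapped the clusters or their 100 kb flanks, whether by span or by anchor. How much of chromosome 18 these loops cover was not counted, so the lack of overlap is no trait of the clusters. The nearest responsive loop (chr18:34925001-35550000) ended 1.38 Mb before the alpha cluster, and the nearest less-responsive loop (chr18:42625001-43150000) began 4.783 Mb after the gamma cluster. Loops outside these 2 lists, shorter ones among them, were not analysed here. Of the study's 1827 ZBTB21 peaks in mESCs, 37 lay on chromosome 18 and none overlapped the 1 kb around a member TSS. The share of all protein-coding genes with a ZBTB21 peak was not counted, so this lack cannot be read as particular to the members. A single ZBTB21 peak of the interval from alpha to gamma, at chr18:37643968-37644371, lay at the Taf7 promoter and overlapped the listed ATAC-seq peak there. Another, at chr18:37883345-37884115, lay in Diaph1 and overlapped a listed peak with a score of 732.

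The same count was made for other gene families. Of the 12 non-clustered protocadherins, single genes with a related adhesion domain on several chromosomes, 3 (25%, Wilson 95% interval 8.89 to 53.2) had a peak within 1 kb: Pcdh8 (score 775), Pcdh18 (712) and Pcdh20 (739). Pcdh1, Pcdh7, Pcdh9, Pcdh10, Pcdh11x, Pcdh12, Pcdh15, Pcdh17 and Pcdh19 had none. This share lay close to the 28.1% of the clustered members. Of families with many neighbouring genes, the Hox, keratin and olfactory receptor genes were counted. Of the Hox genes 4 of 39 (10.3%) had a listed peak, of the keratin genes 6 of 53 (11.3%) and of the olfactory receptor genes, which neurons of the nose choose singly, 8 of 1107 (0.723%). At 1 kb the alpha and beta shares of 14.3 and 13.6% thus lay nearer to those of the Hox and keratin genes, and the gamma share of 52.4% lay over that of every family counted. The likeness did not hold at 2.5 kb. There alpha had 35.7% and beta 45.5%, beside 23.1% of the Hox genes, 13.2% of the keratin genes and 33.2% of all genes. These are counts of 1 list without a test.

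**Figure D5:**
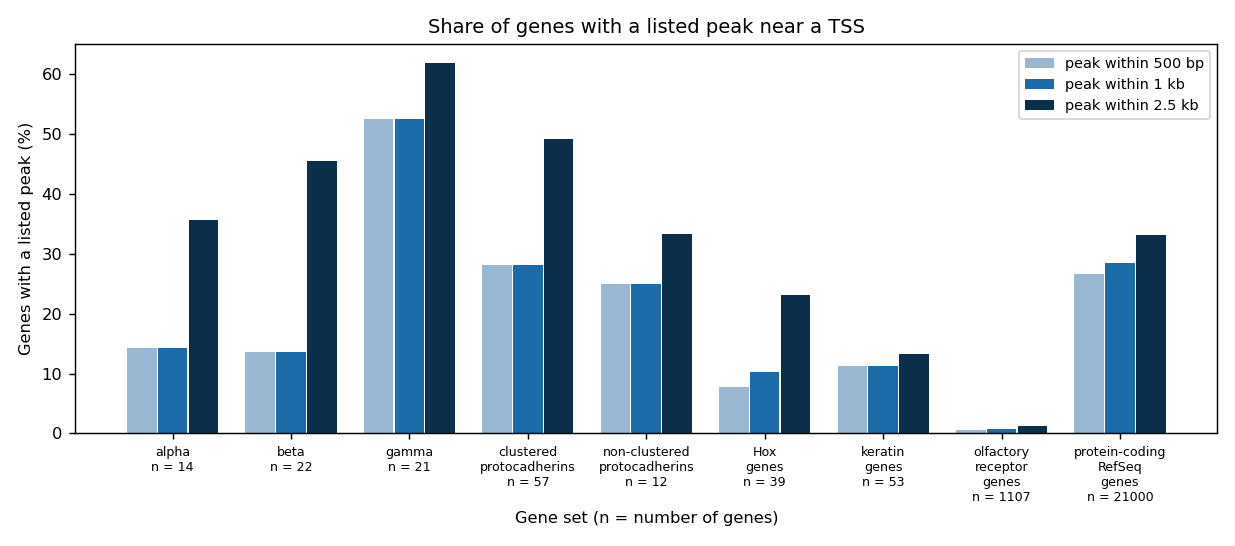
Share of genes with a listed peak (vertical axis, %) within 500 bp, 1 kb and 2.5 kb of a TSS for the 3 clusters, all members, 4 other gene families and all protein-coding genes, with the number of genes under each group of bars. The alpha and beta shares went from 14.3 and 13.6% at 1 kb to 35.7 and 45.5% at 2.5 kb, while that of all genes went from 28.5 to 33.2%.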

How the data were processed

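ATAC-seq libraries of untreated V6.5 mESCs (2 replicates) gave 1 list of peaks in mm10 coordinates, and the authors deposited for each peak a score, a whole number from 540 to 953. Per the submitters' processing notes, cutadapt 2.6, Bowtie2 2.3.5.1 and MACS2 2.1.1 were used. How ATAC-seq peaks were called, and whether cut sites were shifted for Tn5, is not given in the sources used here. For ChIP-seq the methods give an IDR threshold of 0.05, which the scaled score of 540 would equal, and the score was read as such from its values alone.

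TSSs were the 5' ends of curated RefSeq transcripts of GRCm38.p6. A peak was within 1 kb when at least 1 bp of it overlapped the 1 kb on either side of a TSS. Named were all members with such a peak, the C-type genes, the longest distances and each peak of the locus. Members and lists were chosen with earlier results of these data known. Columns of unmatched samples were 0. The search for overlaps within 1 kb and for the nearest peak was tested on simulated data, where 0 of 1100 checks differed from a direct search. Alternatives were other windows, a centre rule, gene 5' ends, GENCODE M21 TSSs, peaks with a score over 696, and merging within 500 bp. Python 3.11.15, numpy 2.4.6, scipy 1.17.1 and matplotlib 3.10.9 were used.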

Additional observations from a re-analysis of the deposited data

How the results depend on the processing

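No paired analysis was possible because the untreated list holds no values per replicate, and for the same reason no replicate could be left out. Of 51 values under alternatives, 37 stayed within 1.5 times their main value or the spread given. With a window of 2.5 kb the members with a peak came to 28, of which 5 were alpha and 10 beta genes. With peaks over the median score alone they came to 9 (15.8%, beside 18.6% of all genes), with 0 alpha and 1 beta gene, and the peaks in the spans came to 2 in alpha, 4 in beta, 11 in gamma and 4 in the 100 kb after it. The median distance to a peak was then 155.1 kb in alpha, 30.93 kb in beta and 4.698 kb in gamma. The same 16 members had a peak at 500 bp, by the peak centre and by the gene's 5' end. GENCODE TSSs and a CTCF consensus with 1 mismatch (9 cluster peaks, beside 22.1% of listed peaks) were chosen after seeing the data. With GENCODE TSSs 16 of the 56 matched members had a peak. The deposited list has no depth, so a peak too weak to be listed cannot be told from none.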

Other observations

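The 2 kb around the TSS had a median GC content of 42.93% over the 57 members, beside 51.87% over all protein-coding TSSs. It was 41.8% in the alpha, 42.1% in the beta and 45.78% in the gamma cluster. The ratio of observed to expected CpG, 0.49 over all TSSs, was 0.62 in alpha, 0.33 in beta and 0.51 in gamma, so that the alpha genes, with few listed peaks, had the highest ratio. Within the gamma cluster the 11 genes with a peak had a median ratio of 0.48 and the 10 without one 0.61. The order was the other way over all protein-coding TSSs (0.57 with a peak, 0.42 without) and in beta (0.44 and 0.33), and the alpha medians were 0.63 and 0.62.

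The RefSeq TSS of 9 members lay at the start codon, which leaves no 5' untranslated sequence in the model: Pcdha1, Pcdha8, Pcdha9, Pcdha10, Pcdha11, Pcdha12, Pcdhac1, Pcdhb1 and Pcdhb8. Of these 9, Pcdha11 and Pcdhb1 had a peak within 1 kb, and offsets from their TSSs are offsets from the coding start.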
